A study of Mus musculus with 24 samples.

Results

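The mutant MeDIP regions are 4182 intervals of the mouse genome, all on autosomes, that were listed for methylated-DNA immunoprecipitation sequencing (MeDIP-seq) under a name joining the mutant with an increase of methylation. They are every region of that list, and no region was selected by its values. The 6 region lists of the series held 34428 regions on the autosomes in all. The list is attached to the sample of untreated cells with an IDH1 wt vector. The sources used here do not state which libraries it compares, which way methylation differed or what threshold was used, so the regions are described by position alone.

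The cells were mouse bone marrow immortalized with HOXA9, carrying a vector for IDH1 wt or for IDH1 R132H, and kept in DMEM with 10% serum, 6 ng/ml IL-3, 10 ng/ml IL-6 and 20 ng/ml SCF. Cells were either untreated or given vitamin C at 0.345 mM at 0, 24 and 48 h and harvested at 72 h. MeDIP-seq covered both genotypes with and without vitamin C. From R132H cells come RNA-seq, ChIP-seq peaks of 3 histone marks and of the factors PU.1 and Runx1, the hydroxymethylation counterpart of MeDIP (hMeDIP) and bisulfite sequencing of the whole genome (WGBS), again with and without vitamin C. The series had 24 samples and each group held 1 library, so no value has a replicate and intervals given below are exact 95% Clopper-Pearson intervals that cover counting error only. Strain, number of animals and number of clones are not stated there.

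Mutant IDH1 turns 2-oxoglutarate into 2-hydroxyglutarate, which inhibits dioxygenases such as the TET enzymes. TET enzymes oxidise methylated cytosine and so open the way to its loss, and DNMT enzymes place the methyl group, mostly where a cytosine precedes a guanine (CpG). CpG-rich promoters are usually free of methylation and carry H3K4me3, active enhancers carry H3K4me1 with H3K27ac, and the bodies of transcribed genes are usually methylated.

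A few promoters under a mutant MeDIP region are shown first because gene starts held a larger share of this list than of the other MeDIP lists. Each window runs from 250 bases before to 50 bases after a start site, is written 5′ to 3′ on the gene's strand from RefSeq (GRCm38.p6), and has every CpG in capitals. Tet3 encodes a TET enzyme (minus strand, chr6:83441629-83441928, 22 CpG). Pik3cd encodes the delta catalytic subunit of PI3-kinase of white blood cells (minus strand, chr4:149676040-149676339, 26 CpG) and Ccnd3 encodes cyclin D3, which drives entry into the cell cycle (plus strand, chr17:47593217-47593516, 28 CpG). Pik3cd and Ccnd3 were among the 12 genes of highest RNA level with a region near a start. In these 3 genes the start lies inside the span, past the first one. Ednrb, the endothelin receptor type B, lay under one of the longest regions (minus strand, chr14:103843652-103843951, 15 CpG), and Edn3 encodes an endothelin (plus strand, chr2:174760369-174760668, 10 CpG). The mutant regions covered all 300 bases of the Tet3, Pik3cd and Ednrb windows, 284 bases of the Ccnd3 window and 168 bases of the Edn3 window.
Tet3: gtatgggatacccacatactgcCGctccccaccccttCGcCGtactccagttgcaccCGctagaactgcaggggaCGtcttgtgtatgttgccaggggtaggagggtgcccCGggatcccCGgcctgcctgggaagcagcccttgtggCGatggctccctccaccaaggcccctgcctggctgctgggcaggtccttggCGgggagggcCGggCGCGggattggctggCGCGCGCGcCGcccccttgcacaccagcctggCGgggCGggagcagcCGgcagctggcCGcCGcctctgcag
Pik3cd: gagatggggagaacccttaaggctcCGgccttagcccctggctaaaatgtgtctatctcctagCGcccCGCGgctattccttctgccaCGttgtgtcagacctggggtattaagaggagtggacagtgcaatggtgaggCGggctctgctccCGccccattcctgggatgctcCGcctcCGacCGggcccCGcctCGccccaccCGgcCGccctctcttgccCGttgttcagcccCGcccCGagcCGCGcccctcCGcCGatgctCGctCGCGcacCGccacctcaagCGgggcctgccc
Ccnd3: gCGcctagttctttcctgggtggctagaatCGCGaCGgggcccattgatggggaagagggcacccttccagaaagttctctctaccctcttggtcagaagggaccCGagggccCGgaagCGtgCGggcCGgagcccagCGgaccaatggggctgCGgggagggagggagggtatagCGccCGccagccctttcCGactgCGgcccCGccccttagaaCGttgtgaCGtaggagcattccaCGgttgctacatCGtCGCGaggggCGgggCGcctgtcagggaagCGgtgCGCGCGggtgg
Ednrb: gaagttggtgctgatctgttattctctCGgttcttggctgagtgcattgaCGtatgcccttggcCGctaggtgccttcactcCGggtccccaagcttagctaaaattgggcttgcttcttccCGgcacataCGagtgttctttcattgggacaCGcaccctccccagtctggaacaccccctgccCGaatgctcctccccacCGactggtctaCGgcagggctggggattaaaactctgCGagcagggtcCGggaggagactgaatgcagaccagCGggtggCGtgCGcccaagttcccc
Edn3: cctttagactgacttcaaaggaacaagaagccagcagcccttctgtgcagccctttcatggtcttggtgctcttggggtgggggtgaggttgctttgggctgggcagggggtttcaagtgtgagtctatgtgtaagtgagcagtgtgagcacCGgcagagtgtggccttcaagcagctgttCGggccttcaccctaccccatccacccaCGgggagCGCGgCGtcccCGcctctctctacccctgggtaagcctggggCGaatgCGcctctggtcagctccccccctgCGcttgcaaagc

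The regions were short and scattered. Their median length was 500 bp, with a range of 250 to 2000 bp. A length of exactly 500 bp was found for 2509 regions, 811 were 1000 bp long and 38 were longer. Together they covered 2.58 Mb. The median gap between neighbours was 244 kb, and 633 gaps exceeded 1 Mb. Chromosome 11 was densest with 2.56 regions per Mb, followed by chromosome 17 (2.25) and chromosome 19 (2.21), and chromosome 3 was sparsest with 1.11, against 1.71 over all autosomes. Across the 19 autosomes the density of regions and of protein-coding genes had a Pearson r of 0.765, given as a description.

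Gene spans held most of the regions. The midpoint of 2451 regions, 58.6% (57.1 to 60.1), lay in the span of a protein-coding gene, against 40.3% of all 500 bp windows of the autosomes. Of the 4054 regions on chromosomes with listed start sites (all but the 128 on chromosome 18), 220 lay within 1 kb of a start, 5.43% (4.75 to 6.17), against 1.49% of windows. A further 2203 (54.3%) lay elsewhere in a protein-coding span, 334 (8.24%) in another kind of gene and 1297 (32.0%) between genes, where 50.8% of windows lay. Start sites were listed for 16457 of the 20665 protein-coding genes, so some regions counted as gene span are at starts that were not seen.

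These regions lay at starts more often than those of the MeDIP deMR and MeDIP iMR lists, which are attached to the R132H MeDIP samples without and with vitamin C. The share within 1 kb of a start was 2.39% (1.92 to 2.94) for MeDIP deMRs and 1.66% (1.31 to 2.09) for MeDIP iMRs, and neither interval overlapped that of the mutant regions. Within 250 bp of a start lay 71 mutant regions (1.75%), 17 MeDIP deMRs (0.462%) and 23 MeDIP iMRs (0.524%), or 4.42, 1.17 and 1.32 times the share of windows. The WGBS lists, made from other libraries, had 8.62% (iMR) and 5.42% (deMR) of their regions within 1 kb of a start. On the upstream side of the start lay 100 of the mutant regions within 1 kb and 120 lay on the downstream side. The MeDIP lists may share the untreated R132H library with the mutant list.

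**Figure D1:**
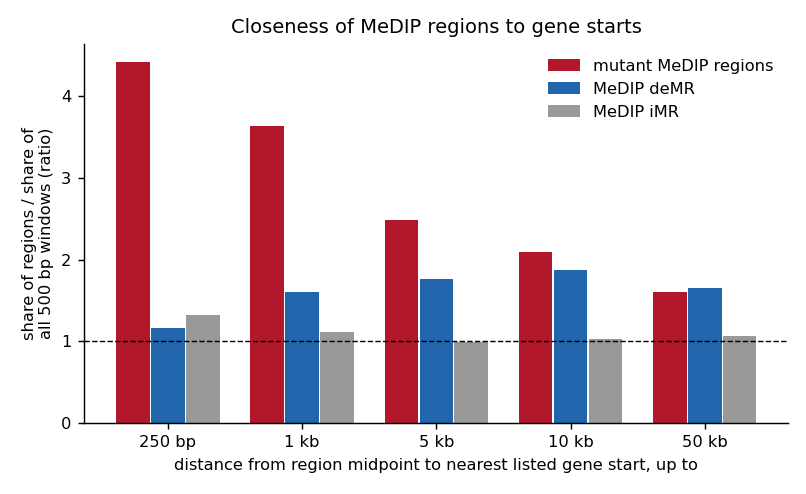
Ratio of the share of regions to the share of all 500 bp windows (vertical axis) whose midpoint lies within a given distance of the nearest listed gene start (horizontal axis), for the mutant MeDIP regions, MeDIP deMRs and MeDIP iMRs. The dashed line marks equality with windows, and the mutant regions reach 4.42 within 250 bp while MeDIP deMRs are at 1.17.

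Along the gene, the first 10% of the span held more regions than any other 10%. Among 1911 regions inside a single gene with a known strand, 13.7% lay in that first stretch and 11.7% in the last, while the stretches between ranged from 8.27% to 10.9%. For MeDIP deMRs the first stretch held 8.15%.

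Some regions lay close to each other. When regions no more than 10 kb apart were chained, 469 regions (11.2%) fell into 223 groups of 2 or more, 20 groups held 3 or more and 3 groups held 4. With regions that touch end to end joined into 1, a setting added after the data were seen, 158 groups held 8.03% of 4108 stretches. MeDIP deMRs were grouped in a like share (11.1%), and 411 of 4564 MeDIP iMRs fell into groups. One group of 4 lay in Srrm3 (chr5:135835501-135857500), a gene for a splicing factor of neurons that was listed at 0.00429 RPKM, and its first region touched H3K4me1, H3K4me3 and Runx1 peaks while the others touched none. Another group of 4 (chr17:45733751-45750500) had 1 region at the start of 1600014C23Rik and the others more than 5 kb upstream of it. The last group of 4 was between genes (chr10:66924501-66938500), 77689 bp from Reep3. A group of 3 (chr14:21981001-21990000) had 1 region at the start of Zfp503, a zinc finger gene, and the others outside that gene. Nkx2-3, a homeobox gene listed at 0 RPKM, had 3 regions within 3000 bp along its span (chr19:43613001-43616000). By gene, Etv6, Akap9 and Pde4d held the most listed regions, 6 each, in 5, 4 and 5 separate stretches once touching regions were joined. Etv6, a repressor of the ETS family needed by blood stem cells, stood at 90.6 RPKM, and all but the last of its regions lay on an untreated H3K4me1 peak.

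The longest regions measured 2000 bp. One covered the start of Cav1, the caveolin gene (chr6:17306501-17308500), which was listed at 0 RPKM and carried no peak of any of the 5 untreated lists there. Another covered the start of Ednrb (chr14:103843001-103845000), also listed at 0 RPKM, with 990 of its bases in H3K4me3. The region at the start of Slc22a4, a carrier of ergothioneine (chr11:54027001-54029000), was covered over its whole length by H3K4me3 and H3K27ac peaks, and the gene stood at 15.7 RPKM. A 1500 bp region lay in Fli1, an ETS factor of blood cells (chr9:32519001-32520500), covered over its whole length by H3K4me1, with Fli1 RNA at 51.2 RPKM.

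The chromatin of untreated R132H cells was then set beside the regions. No listed peak touched 3169 regions, 75.8% (74.5 to 77.1), beside 70.7% of MeDIP deMRs and 92.3% of MeDIP iMRs. H3K4me1 peaks touched 777 (18.6%), H3K4me3 peaks 432 (10.3%), H3K27ac peaks 319 (7.63%), PU.1 peaks 170 (4.07%) and Runx1 peaks 12 (0.287%). Counted by midpoint, 15.8% of regions lay in H3K4me1 peaks, which cover 7.43% of autosomal bases, a ratio of 2.13. That ratio was 3.21 for H3K4me3, 2.49 for H3K27ac and 1.76 for PU.1. Against the vitamin C peak lists, 12.9% of regions touched H3K4me1, 11.3% H3K4me3, 8.68% H3K27ac and 1.91% PU.1. The listed PU.1 peaks numbered 59129 untreated and 22765 with vitamin C, and the H3K4me1 peaks 56862 and 45258, so the lower overlaps of these antibodies stood beside shorter lists.

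The mutant regions touched H3K4me3 at 10.3% (9.42 to 11.3), against 8.00% (7.15 to 8.91) of MeDIP deMRs and 1.86% of MeDIP iMRs. In the lists of the other assays the share was 10.9% (10.2 to 11.6) for hMeDIP iHRs, 6.55% for WGBS iMRs and 19.4% for WGBS deMRs. H3K4me1 was touched by 18.6% (17.4 to 19.8) of mutant regions, fewer than the 24.4% (23.0 to 25.8) of MeDIP deMRs and more than the 5.96% of MeDIP iMRs. Of the 432 regions on H3K4me3, 165 (38.2%) lay wholly inside the peak, while 72.1% of those on H3K4me1 did. Of the 419 on H3K4me3 and on chromosomes with listed starts, 108 (25.8%) had their midpoint within 1 kb of one and 221 (52.7%) within 5 kb.

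**Figure D2:**
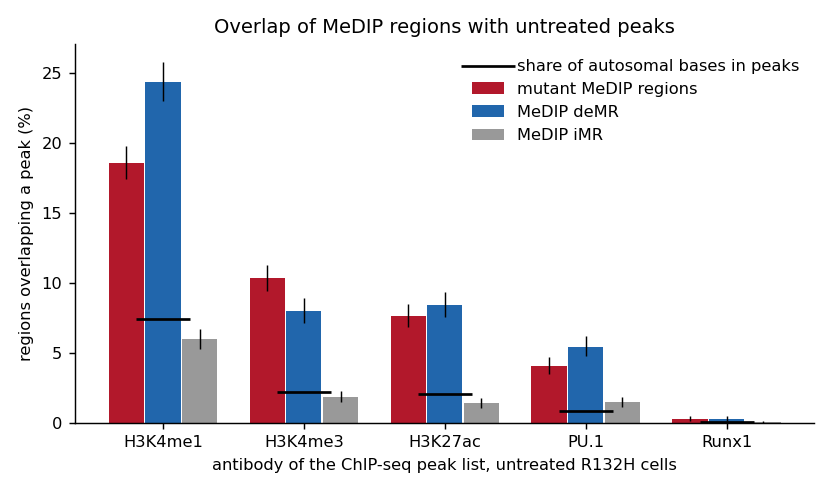
Share of regions touching a ChIP-seq peak of untreated R132H cells (vertical axis, percent) by antibody (horizontal axis), for the mutant MeDIP regions, MeDIP deMRs and MeDIP iMRs, with exact 95% intervals as error bars and a black line at the share of autosomal bases in peaks. The mutant regions stand above MeDIP deMRs for H3K4me3 and below them for H3K4me1. Bars count regions touched by 1 bp or more and the line counts bases, so bar and line are unlike measures.

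Split by marks, 246 regions (5.88%) touched H3K4me3 together with H3K27ac, 186 (4.45%) touched H3K4me3 without H3K27ac, 73 (1.75%) H3K27ac without H3K4me3, and 462 H3K4me1 with neither. H3K4me3 without H3K27ac took 2.48% of MeDIP deMRs. The gene nearest to such a region had a median of 2.86 RPKM in the untreated library, against 11.1 where both marks were touched, 13.7 for H3K4me1 with neither and 1.20 with no listed peak. The region at the Ednrb start and 1 of the 3 at Nkx2-3 (chr19:43615001-43616000) touched H3K4me3 without H3K27ac, and so did those at Tet3 and Zfp503.

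Lists from the other assays were then set against the mutant regions. WGBS iMRs touched 102 regions, 2.44% of the mutant regions and 1.36% of WGBS iMRs. WGBS deMRs touched 113, 2.70% of the mutant regions and 1.84% of WGBS deMRs. WGBS iMRs cover 0.0833% and WGBS deMRs 0.0508% of autosomal bases, which is a share of bases and not of regions touched. At gene starts, 31 of the 220 mutant regions touched a WGBS iMR, 14.1% (9.78 to 19.4), against 1.70% (1.31 to 2.16) of those elsewhere. WGBS deMRs touched 4.5% (2.20 to 8.20) of those at starts, against 2.66% (2.17 to 3.22) of those elsewhere. Both WGBS lists lie at starts more often than windows do in any case. By marks, WGBS iMRs touched 6.91% of regions with H3K4me3 and H3K27ac and 8.1% of those with H3K4me3 without H3K27ac. They touched 1.86% of those without a listed peak. WGBS deMRs touched 9.76% of regions with H3K4me3 and H3K27ac and 5.91% of those with H3K4me3 without H3K27ac. They touched 5.41% of those with H3K4me1 and neither of these marks, and 1.17% of those without a listed peak. WGBS deMRs lie in peaks more often than bases do in any case, with 45.9% of midpoints in H3K4me1, 20.2% in H3K27ac and 16.8% in H3K4me3. Of WGBS iMR midpoints, 5.71% lay in H3K4me3 peaks, which cover 2.19% of autosomal bases. The Tet3 and Pik3cd regions shown above touched WGBS iMRs, and the Ednrb region touched both a WGBS iMR and a MeDIP iMR. Hydroxymethylated regions (hMeDIP iHR) touched 57 mutant regions, 1.36%, or 0.754% of that list, which covers 0.186% of autosomal bases. MeDIP deMRs touched 331 mutant regions (7.91%, and 8.66% of MeDIP deMRs) and MeDIP iMRs 4, but these lists and the mutant list may share a library, so no result is drawn from that overlap.

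RNA levels (RPKM, reads scaled by gene length and by library depth) are from R132H cells, with 86804487 counts untreated and 111453443 with vitamin C. In the untreated library Mpo stood at 796 RPKM, Spi1 at 105.2 and Kit at 32.1, and Hoxa9, the gene used to immortalize the cells, at 3062. Some genes of other cell types were high too, with the mast cell gene Cpa3 at 1863, the monocyte gene Ly6c2 at 1122, the erythroid gene Hbb-bt at 966.9 and the megakaryocyte gene Itga2b at 148.3. All 7 primary granule genes reached 1 RPKM, as did 12 of 15 monocyte, 6 of 11 mast cell, 2 of 9 erythroid, 3 of 8 megakaryocyte, 3 of 10 fibroblast, 1 of 12 T and NK cell and 0 of 10 B cell genes. In such bulk samples fewer cells of a type and less RNA per cell cannot be told apart. A gene was said to hold a region when one touched its span or, where the strand was known, the 5 kb upstream.

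Genes holding a region had a higher median RNA level than genes at large. Those with the region at the start reached 1 RPKM about as often as all genes, but 5 RPKM less often. Of the 20665 genes, 2381 (11.5%) held a region, and 2303 of these had an RNA value, with a median of 3.76 RPKM and 58.8% at 1 RPKM or more. Over all 19282 genes with a value the median was 0.926 and the share 49.8%. The 1437 genes with a region in the span but not within 1 kb of the start had a median of 4.79 RPKM and 61.6% at 1 RPKM. Here a region counted at a gene's start when any base of it lay within 1 kb. The 266 such genes with an RNA value had a median of 0.859 and 48.9% (42.7 to 55.1), beside 1.34 and 50.9% for all genes with a listed start, a share inside that interval. At 0.5 RPKM the share was 54.1%, against 51.8% of all 19282 genes, and at 5 RPKM it was 33.1% against 40.9%. These last comparisons include genes without a listed start. The upper quartile of these start genes was 9.20 RPKM, beside 16.1 for all genes with a listed start. Long genes hold regions more often, from 2.82% of genes under 5 kb to 41.0% of those of 200 kb and more, and in genes of 50 to 100 kb 67.3% of those with a region reached 1 RPKM against 59.4% of all.

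Regions in gene bodies and at gene starts were set against RNA level. Regions per Mb of span numbered 1.81 in genes under 0.1 RPKM, 2.67 at 0.1 to 1, 3.54 at 1 to 5, 3.09 at 5 to 20, 3.62 at 20 to 100 and 5.49 above. The share of genes holding a region in the same ranges was 9.18%, 14.0%, 17.0%, 14.1%, 13.2% and 11.3%, highest at 1 to 5 RPKM and lower again above. Density also fell with span, from 13.4 per Mb in genes under 5 kb to 1.46 in those of 200 kb and more, and genes of 100 RPKM and more had a median span of 12.9 kb. The part of span length in the density was not tested. Starts were touched in 1.58% of genes under 0.1 RPKM, 3.26% of those at 0.1 to 1, 2.97% at 1 to 5, 1.73% at 5 to 20, 1.04% at 20 to 100 and 0.818% above. The share at starts was thus highest at weakly expressed genes, with only 4 genes behind the last value. MeDIP deMRs had a share of 0.558% to 1.05% at starts in all these ranges.

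**Figure D3:**
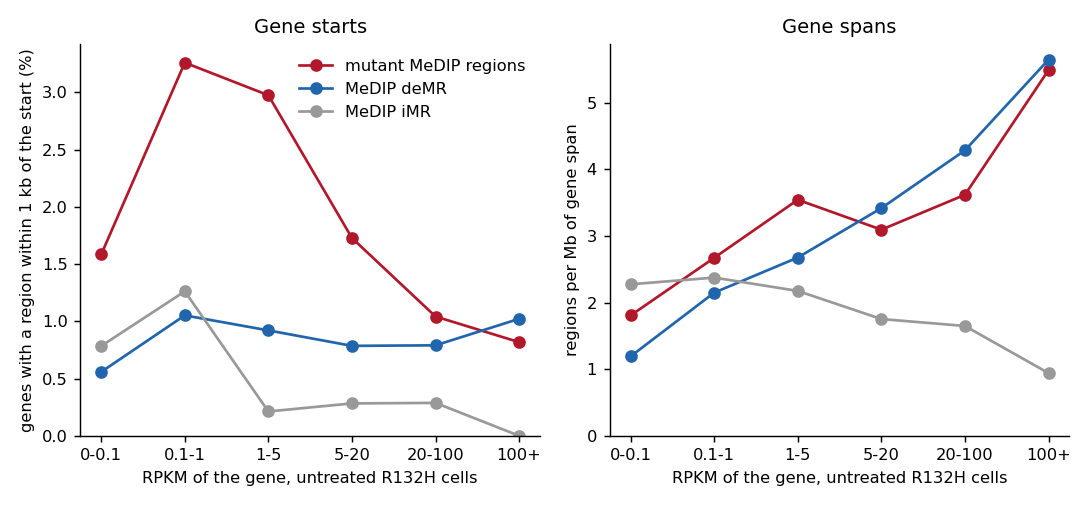
Left: share of genes with a region within 1 kb of the start (vertical axis, percent). Right: regions per Mb of gene span. Both are drawn by the RPKM of the gene in untreated R132H cells (horizontal axis) for the mutant MeDIP regions, MeDIP deMRs and MeDIP iMRs. At starts the mutant regions peak at 3.26% for genes of 0.1 to 1 RPKM, while in spans their density is 5.49 per Mb for genes of 100 RPKM and more, which are short, and that of MeDIP deMRs is 5.64.

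Among genes with a region at the start, RNA was higher where that region touched H3K4me3, as it was over all genes with the mark. Where that region touched H3K4me3 (135 genes), the median was 6.04 RPKM and 72.6% (64.3 to 79.9) reached 1 RPKM, and where it did not (131 genes), the median was 0.0253 and 24.4% (17.4 to 32.7) did. Counted by H3K4me3 within 1 kb of the start, 69.5% (62.1 to 76.3) of 174 such genes with the mark and 9.78% (4.57 to 17.8) of 92 without it reached 1 RPKM. Over all genes, 83.1% with the mark there (median 11.9 RPKM) and 4.01% without it (median 0) did.

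The highest RNA levels among genes with a region near the start belonged to Psap, the precursor of the lysosomal saposins (258.5 RPKM), and Pik3cd (146.6). Psap's region (chr10:60282501-60283500) lay upstream of an internal start, touched H3K4me1 alone of the untreated peaks and was also in the MeDIP deMR list. The Pik3cd region (chr4:149675751-149676500) touched H3K4me1, H3K4me3, H3K27ac and Runx1 peaks. Cxcr4, the chemokine receptor that holds blood progenitors in the marrow, stood at 120.5 RPKM, with its region (chr1:128593001-128593500) on H3K4me3 and H3K27ac. Ccnd3 stood at 115, with a region at its internal start (chr17:47592501-47593500) and another in its span. Gata2, a factor of stem and mast cells, stood at 91.4 RPKM, and its region (chr6:88197001-88198000) lay upstream of an internal start on H3K4me1, H3K4me3 and H3K27ac.

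Promoter windows under a region were neither rich nor poor in CpG as a whole, but parted from other promoters once RNA level was taken into account. Regions touched 135 of 20085 windows, of 127 genes, with a median of 15 CpG against 14 in all. A GC share above 50% with an observed to expected CpG ratio above 0.6, called island-like here, was found in 46.7% and 46.2%. Among genes at 1 RPKM or more, the 64 windows under a region had a median of 14.5 CpG (quartiles 8 and 24.5) against 21 (13 and 29) in all 9998. Island-like windows made up 45.3% of them against 68.5%. Among genes below 1 RPKM, the 70 windows under a region had a median of 16.5 CpG (9.25 and 23.8) against 5 (2 and 16) in all 8929, and 48.6% against 24.4% were island-like. By CpG number, windows were touched in 0.181% with 0 to 4 CpG, 0.957% with 5 to 9, 1.24% with 10 to 19, 0.664% with 20 to 29 and 0.526% with 30 and more. The antibody binds methylated cytosine, and the part of CpG number in these shares was not tested.

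**Figure D4:**
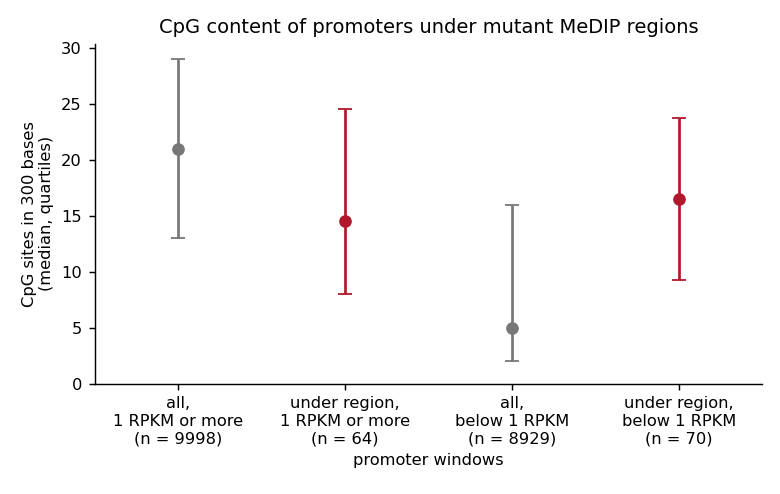
CpG sites per 300-base promoter window (vertical axis; point, median; bars, quartiles) for all promoters and those under a mutant MeDIP region, split at 1 RPKM in untreated R132H cells (horizontal axis). Windows under a region have medians of 14.5 and 16.5 at or above 1 RPKM and below it, between the medians of 21 and 5 of all promoters.

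Short motifs were searched on both strands of these windows. The CRE (TGACGTCA) and the NRF1 motif were in 0 of the 135, which allows a share of up to 2.70%, against 2.30% and 1.34% of all windows. The Sp1 motif (GGGCGG) was in 57.0% against 47.0%, the ETS motif (CCGGAAG) in 8.89% against 11.9%, the RUNX motif (TGTGGT) in 14.8% against 14.8% and the E-box (CACGTG) in 7.41% against 7.89%. The ETS, RUNX and E-box shares had intervals that held the share of all windows, and the Sp1 interval (48.2 to 65.5) lay above it. Split by RNA level, the Sp1 motif was in 60.9% of windows under a region against 63.4% of all at 1 RPKM or more, and in 54.3% against 31.9% below it. Windows under MeDIP deMRs had it in 57.1%.

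Gene classes, taken from lists of symbols and from symbol patterns, were then compared with the 11.5% of all protein-coding genes holding a region. Among genes of cytosine methylation and of 2-hydroxyglutarate, 6 of 16 held one (37.5%, 15.2 to 64.6). Tet3 (15.6 RPKM) had its region at a start (chr6:83441501-83442000) on H3K4me1 and H3K4me3. Idh2, the mitochondrial isocitrate dehydrogenase (119.7 RPKM), had one upstream (chr7:80122501-80123000) on H3K4me1, and Dnmt3a, a de novo methyltransferase (4.29 RPKM), had one in its span (chr12:3811501-3812000) on H3K4me1. D2hgdh, which breaks down 2-hydroxyglutarate, had one upstream (chr1:93821501-93822000), within the neighbouring gene Ing5 and without a listed peak. No region was found for Idh1, Tet1, Tet2, Dnmt1 or Dnmt3b. Of the other pathway lists, cytokine receptor signalling held regions in 4 of 22 genes, histone lysine demethylases in 3 of 17, leukaemia genes in 2 of 17 and polycomb and trithorax genes in 1 of 21.

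Genes of immature blood cells held regions. Of 18 stem and progenitor genes, 6 held one (33.3%, 13.3 to 59.0): Gata2, Meis1, Hlf, Flt3, Pbx3 and Hoxa10. Of the 15 at 1 RPKM or more, 5 held one, against 14.1% of all genes at that level. No interval was computed for these 15, and even the interval of all 18 genes holds 14.1%. Meis1, the partner of HOXA9 (18.3 RPKM), had a 1250 bp region near the start end of its span (chr11:19013751-19015000) on H3K4me3 and H3K27ac, and Flt3, a receptor of progenitors (6.97 RPKM), had one beside its start (chr5:147401001-147401500) on H3K4me1, H3K4me3 and H3K27ac. Among 18 myeloid factors, 5 held one (27.8%, 9.70 to 53.5, an interval that holds the share of all genes): Etv6, Spi1, Fli1, Cebpe and Ets1. Spi1, which encodes PU.1, had a region (chr2:91086251-91087000) on H3K27ac and PU.1 peaks. The Cebpe region (chr14:54711001-54712000), in a gene of late granulocyte maturation, lay on H3K4me1, H3K4me3 and H3K27ac. Elane, the neutrophil elastase gene (47.5 RPKM), held a region past its start (chr10:79886501-79887500) on the same 3 marks. Elane and Prss57 were the 2 of 7 primary granule genes to hold one (28.6%, 3.67 to 71.0, an interval that holds the share of all genes). Of 14 late granule genes, Lcn2 and Camp held one. Monocyte (0 of 15), mast cell (0 of 10), erythroid (0 of 8), megakaryocyte (0 of 8), B cell (0 of 10), T and NK cell (0 of 12) and fibroblast genes (0 of 10) held none, though with so few genes the upper limits of these shares were 21.8% to 36.9%. No region was found for Hoxa9, Mpo, Kit, Runx1, Cebpa, Gfi1 or Irf8.

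Kinases of the MAP, PKC, CaMK and Src groups, most of which relay signals from the cell surface, held regions in 27 of 92 (29.3%, 20.3 to 39.8), such as Prkcb with 4 and Mapk14 with 2, with a median span of 53.1 kb. The symbol pattern also takes genes that are no kinases, such as Camkmt, a methyltransferase, and Mapk8ip3, a scaffold. In all genes of 50 to 100 kb the share was 19.3%. Cadherins and protocadherins held them in 44 of 108, but many of these share one span with the same regions. Olfactory and vomeronasal receptors, of which 3 reached 1 RPKM, held them in 4 of 1471 (0.272%), among them Olfr56 at 1.20 RPKM. Their median span was 0.951 kb, and in all genes under 5 kb the share was 2.82%.

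G protein-coupled receptors held regions about as often as all genes (12.7%, 22 of 173), but at their starts in 10 of 129, 7.75% (3.78 to 13.8), against 1.65% of all genes with a listed start. They included Cxcr4, Ptgir (27.3 RPKM), the prostacyclin receptor, and Ednrb. Larger shares at starts than in all genes were not limited to these receptors. Stem and progenitor genes had 3 of 15, diacylglycerol, inositol and phospholipid enzymes 4 of 73 and solute carriers 10 of 268. Myeloid factors (0 of 11) and monocyte genes (0 of 12) had none. Ion channels taken by the symbol pattern, with regions in 18.6%, had 0 of 161 starts touched, which allows a share of up to 2.27%. The pattern misses some channels, such as Nalcn, the sodium leak channel, named after its values were seen, which had a region at its start. The endothelin genes Edn3 and Ednra were named after their values were seen. They also had a region at the start, and stood at 0.0268 and 0.0377 RPKM.

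**Figure D5:**
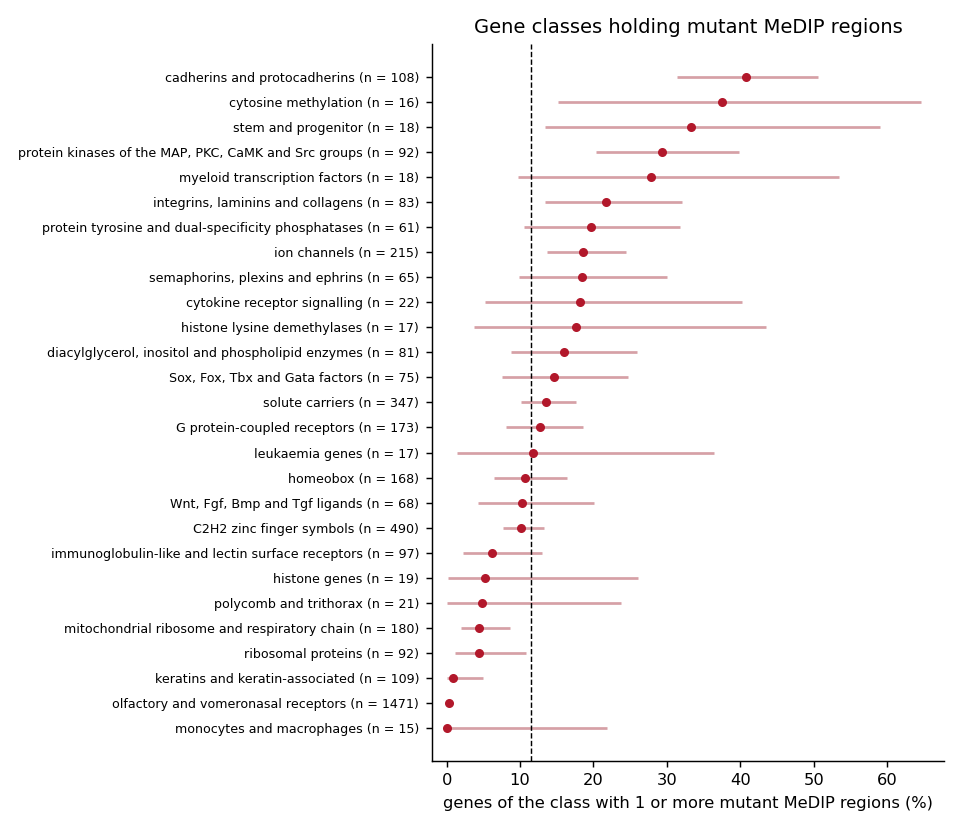
Share of genes holding 1 or more mutant MeDIP regions (horizontal axis, percent) for classes of 15 genes or more (vertical axis), with exact 95% intervals as bars and a dashed line at the 11.5% of all protein-coding genes. The kinase groups lie above the line, as do ion channels and integrins, laminins and collagens among others. Olfactory receptors lie below it, as do keratins among others.

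The vitamin C library of R132H cells was last set against the untreated one for genes with a region, as a difference of log2 of RPKM plus 0.5, in genes at 1 RPKM or more in either. This compares 2 libraries and not the conditions. Of 1371 genes with a region, 43 were at least 2-fold lower with vitamin C, 3.14% (2.28 to 4.20), and 24 were at least 2-fold higher, 1.75% (1.13 to 2.59). Over all 9724 genes measured, 1.88% were lower and 2.41% higher. In genes with a span of 50 kb or more, a split added after the data were seen, 4.46% of 672 with a region were lower, against 2.04% of 1768 without one and 2.70% of both, and 1.34% were higher against 1.64% of both. Other settings kept more lower than higher genes among those with a region. The shares lower and higher were 4.16% and 2.33% with a pseudocount of 0.1 (all genes 2.63% and 2.90%), 2.41% and 1.46% with 1 (1.39% and 2.06%), 1.91% and 1.09% without the filter (1.01% and 1.27%) and 8.68% and 5.98% at 1.5-fold (6.36% and 6.31%). Genes with a region within 1 kb of the start had 7 lower and 4 higher of 134.

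The genes named for this comparison reached 5 RPKM in either library, and larger differences at lower levels, such as Pcp4l1 (2.61 and 0.0614 RPKM, -2.47) and Igf1 (3.40 and 0.382, -2.15), fall outside that rule and were picked after their values were seen. Spint2, an inhibitor of serine proteases, stood at 13.7 RPKM untreated and 0.664 with vitamin C (log2 difference -3.61), with a region upstream (chr7:29285501-29286000) without a listed peak. Kcng2, a potassium channel subunit, stood at 12.2 and 1.35 RPKM (-2.78). Chd7, a chromatin remodeller, stood at 10.2 and 1.47 RPKM (-2.44), and Tgfbr3, a TGF-beta co-receptor, at 16.5 and 3.66 (-2.03). Itgb5, an integrin subunit, stood at 26.6 and 6.42 (-1.97), and its region at chr16:33884501-33885500 was also in the MeDIP deMR and hMeDIP iHR lists. Flt3 stood at 6.97 and 2.95 RPKM (-1.11), Hlf at 17.0 and 6.38 (-1.35). In the other direction, Jun, a subunit of AP-1, stood at 7.26 and 45.8 RPKM (2.58), with a region in its span (chr4:95049501-95050500) on H3K4me3, H3K27ac and PU.1 peaks. Rbms1, which encodes a nucleic acid binding protein, stood at 4.63 and 29.5 RPKM (2.55), and Gdf15, a stress-induced cytokine, at 0.660 and 5.80 (2.44).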

How the data were processed

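The mutant MeDIP list and the other region lists hold positions only, and the build is mm10 per the submitters' processing notes, which name CASAVA 1.8.2, BWA, Novoalign 3.02.08, SAMtools, Picard and MACS2 2.1.0.2 without role or order. The authors deposited ChIP peaks with a p-value or q-value per histone peak (which of them is not stated) and a score per PU.1 or Runx1 peak, used only to rank peaks within a list. RNA files hold the authors' read count and RPKM per gene, and the counter is not given in the sources used here. Levels are the deposited RPKM.

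Regions were read as closed intervals, since most start 1 base past a multiple of 250 bp. They were placed by midpoint against RefSeq GRCm38.p6 spans and start sites (none listed for chromosome 18), and overlap meant 1 bp or more. RNA IDs were matched by symbol or, for 347 genes, by synonym, giving values for 19282 of 20665 genes. Genes without a match, such as the ribosomal protein genes Rpl6 and Rps3a1, are left out of the RNA shares. No coordinates were converted. With 1 library per group no test was run. The interval code was checked on known values. Python 3.11.15, pandas 2.3.3 and scipy 1.17.1 were used. Members and gene lists were chosen with earlier results of these data known. Genes named are those with most regions, the longest regions, up to 4 per list, the highest RPKM at starts, the largest groups, the largest vitamin C differences among genes of 5 RPKM or more in either library and a fixed set. The promoters shown, Reep3's distance and the endothelin genes were picked after values were seen. No genome sequence was used, so composition is given for promoter windows only. 1 gene class is not reported here.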

Additional observations from a re-analysis of the deposited data

How the results depend on the processing

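No paired analysis was possible because each group held 1 library and no test was run. Of the alternative values of the main shares, 30 stayed within the 95% interval of the value reported and 40 did not. A 2.5 kb promoter window gave 10.6% at starts (3.61% of windows) and 50.4% in spans, any overlap gave 6.56% at starts, and all kinds of gene gave 7.45% and 60.9% (2.26% and 47.1% of windows). Chaining at 5 and 50 kb put 8.08% and 31.3% of regions in groups, and joining touching regions first put 8.03% there. Counting spans alone, 10.5% of genes held a region, and 14.1% of genes at 1 RPKM or more did. At 0.5 and 5 RPKM, 61.7% and 46.2% of genes with a region passed (51.8% and 40.9% of all), and at 5 RPKM 33.1% of start genes. Vitamin C shares without the filter were 1.09% higher and 1.91% lower, and at 1.5-fold 5.98% and 8.68%. In genes of 50 kb and more 4.46% were lower. For overlap by 50% of the region, the peaks stronger than the median and a peak within 1 kb, the shares were 15.8%, 7.32% and 25.5% (H3K4me1), 6.86%, 7.01% and 17.0% (H3K4me3), 5.09%, 5.14% and 13.3% (H3K27ac), 1.00%, 2.22% and 11.4% (PU.1) and 0.0956%, 0.143% and 0.933% (Runx1). Within 1 kb, other lists were met by 9.21% (MeDIP deMR), 0.383% (MeDIP iMR), 2.58% (hMeDIP iHR), 3.68% (WGBS iMR) and 4.45% (WGBS deMR), and at 50% of the region by 0.502% (WGBS iMR) and 0.359% (WGBS deMR). These follow from the wider or narrower rule. Leaving out the regions off the grid, or those also in the MeDIP deMR list, both added after the data were seen, moved no share they were run on outside its interval. The lists carry no read depth, so precision rests on numbers of regions.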

Other observations

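Not all regions followed the 250 bp grid. Of the 4182 mutant MeDIP regions, 3756 started on it and 426 did not, of which 425 were 501 bp long. The MeDIP deMRs (425), MeDIP iMRs (339) and hMeDIP iHRs (483) also had regions off the grid. End to end lay 74 pairs of neighbouring mutant regions. None of the MeDIP and hMeDIP lists had a region on chromosome X or Y, while both WGBS lists did.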
